A study of Mus musculus with 8 samples.

Results

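The proteasome genes on these arrays were chosen by name: every non-control probe whose gene name begins with Psm, then a letter from a to g and a digit. The rule found 49 of the 30458 gene names on the array, carried by 62 probes. Among them Psmc3ip is a meiotic recombination factor that only shares the name and is left out of the counts below. RNA came from NMuMG-NT2197 cells, a line derived from NMuMG mouse mammary epithelium. NT2197 is the name of an activated form of the receptor Neu. The labels contradict themselves on whether the material was microdissected or cultured. All 8 samples carried a pMSCV/hygro vector with a ShcA cDNA, in 4 samples the wild-type form and in 4 the R175Q form, in which glutamine replaces arginine in the phosphotyrosine-binding domain of this adaptor protein. No samples with an empty vector are analysed here, so each difference sets the mutant form against the wild-type form. Per the labels, RNA was amplified over 2 rounds before labelling, so each ratio is one of amplified RNA, and the labels do not say whether replicates came from separate cultures or clones. Each p therefore measures only the spread between these samples, which may be technical.

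The proteasome is the protease that degrades proteins tagged with ubiquitin. Its 20S core is a barrel of alpha rings, which gate the entry, and beta rings, of which Psmb5, Psmb6 and Psmb7 hold the active sites. The 19S cap, built of Psmc ATPases and Psmd subunits, binds and unfolds tagged proteins. In cells exposed to interferon-gamma, Psmb8, Psmb9 and Psmb10 replace the 3 constitutive active subunits and form the immunoproteasome, whose products suit MHC class I presentation. Interferon also raises Psme1 and Psme2, which encode the alpha and beta chains of the PA28 activator, a ring that docks on the core. Transcription factors of the STAT and IRF families act on such genes through short DNA elements, while constitutive subunit genes respond to Nfe2l1 when the proteasome is impaired.

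The sequences upstream of the 3 members that rose, and of Psmb8, are shown because Psme1 and Psme2 rose together while Psmb8, induced with them by interferon, did not pass the test. They are RefSeq sequences of the GRCm38.p6 build, written 5′ to 3′ on the gene's own strand and ending at the base before the annotated start. Capitals mark matches to 3 motifs searched on both strands: an interferon element, TTTCNNTTTC, a STAT element, TTCNNNGAA, and the antioxidant element that NRF factors bind, TGACNNNGC.
Psme1, chr14:55578344-55578493, plus strand: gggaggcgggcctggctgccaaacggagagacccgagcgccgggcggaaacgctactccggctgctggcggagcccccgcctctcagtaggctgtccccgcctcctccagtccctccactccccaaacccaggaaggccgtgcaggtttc
Psme1, first 30 bases of the gene, chr14:55578494-55578523, plus strand: gagctgtgcTTTCGCTTTCccttcccgctg
Psme2, chr14:55591102-55591251, minus strand: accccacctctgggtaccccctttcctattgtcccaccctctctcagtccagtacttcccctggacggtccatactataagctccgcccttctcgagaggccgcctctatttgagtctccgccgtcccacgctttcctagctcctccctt
Psmb5, chr14:54617996-54618145, minus strand: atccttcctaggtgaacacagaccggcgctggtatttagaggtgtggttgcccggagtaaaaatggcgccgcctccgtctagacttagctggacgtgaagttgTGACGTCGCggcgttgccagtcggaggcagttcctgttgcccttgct
Psmb8, chr17:34198045-34198194, plus strand: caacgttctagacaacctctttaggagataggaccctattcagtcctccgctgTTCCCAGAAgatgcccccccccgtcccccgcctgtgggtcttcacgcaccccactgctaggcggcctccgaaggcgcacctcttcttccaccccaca

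Psme1 held the interferon element at bases 10 to 19 of the gene, Psmb5 the antioxidant element from 47 to 39 bases before its start, and Psmb8 the STAT element from 97 to 89 bases before its start. In windows of 300 bases, from 250 before the start to 50 after it, none of these motifs was found for Psme2 at either of its annotated starts, nor for Psmb9 or Psmb10. Of 40 members with a promoter in the table, 5 held the interferon element (Psmb3, Psmd4, Psmd9, Psme1 and Psmg4), 3 the STAT element (Psmb8, Psmd2 and Psmg1) and 6 the antioxidant element (Psmb5, Psmb6, Psmc6, Psmd12, Psmd9 and Psme4). Among all 27018 genes with such a window the shares were 4.0%, 9.6% and 14%. The motifs were chosen with the values known, and a match is a run of letters, not a measured binding site.

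All 46 proteasome genes with a value had a probe well above background on all 8 arrays. Between 53.7% and 63.0% of spots on an array were well above background in the sample channel. Values below are log2 ratios of sample over the common reference hybridized to the same array, so a value ranks samples for one gene and not genes against each other. Psma8, the testis alpha subunit, and Psmb11, the active subunit of the thymic form, were not well above background on any array of either group and were not tested. The line's epithelial markers were measured, with 6 of 8 tested, although Cldn3 was not well above background on any array and Krt7 and Krt19 were lower in R175Q. Of the 10 leukocyte markers tested 8, Ptprc among them, were well above background on all 8 arrays, while 2 others on the array, Ms4a1 among them, were not on any. Dim probes also counted as well above background, such as that of Psmb9, with a median net signal of 124.2 in the sample channel. Of 10 leukocyte, 5 fibroblast and 3 endothelial markers tested, 0 passed the test with limma in this setting, and their values under another background are given beside the rises. Ratios of Ptprc ran from −6.21 to −3.84 in this setting and from −6.60 to −6.30 under that background, taken from negative control spots. Those of Cd14 barely moved.

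In the comparison of R175Q with wild-type ShcA, the proteasome genes that rose were PA28 alpha and beta, Psme1 and Psme2, by about the same amount, and the constitutive active subunit Psmb5, by less. None fell. These were 3 of the 46 genes, against 5.06% of the 17458 genes tested over the whole array (2.68% higher and 2.38% lower), at an adjusted p under 0.05 in limma's moderated test with Benjamini-Hochberg adjustment. The active subunits of the immunoproteasome, Psmb8, Psmb9 and Psmb10, did not pass. The median difference of the 46 was −0.06 on the log2 scale, beside −0.02 over all genes.

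Psme1 gave log2 ratios of −1.24, −1.31, −1.43 and −1.37 in R175Q replicates 1 to 4 and −1.87, −1.93, −1.92 and −1.91 in wild-type replicates 1 to 4. Every R175Q value was above every wild-type value, and the gap between the groups was far wider than either group's spread. Psme1 rose by 0.57 ± 0.05, or 1.48-fold (SE, n = 4 per group, 95% interval 0.45 to 0.69, limma adjusted p = 0.0019). Its single probe was spotted 10 times on the array and lies at chr14:56200194-56200253 in mm9, the build of the files.

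Psme2 gave −1.71, −1.71, −1.81 and −1.73 in R175Q and −2.31, −2.32, −2.40 and −2.37 in wild type, again without overlap. It rose by 0.61 ± 0.05, or 1.52-fold (SE, n = 4 per group, 95% interval 0.50 to 0.71, limma adjusted p = 0.00102). In all 3 probes carry its name. The probe used, at chr14:56208888-56209346 in mm9, and another at chr14:56206296-56206355 differed by 0.61 and 0.65. The third, designed to a separate transcript model, had a median net signal of 86.8 in Cy3, against 12579 for the probe used, and gave −0.14 ± 0.12. RefSeq lists a related gene, Psme2b, on another chromosome, and whether the probes also read it was not tested.

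Both PA28 rises held within the slides that carried arrays of both groups. Slide 2 held R175Q 2 and wild type 1, slide 3 held R175Q 3 with wild type 2 and 3, slide 4 held R175Q 4 and wild type 4, and slide 1 held R175Q 1 alone. Within slides 2, 3 and 4 the difference of Psme1 was 0.56, 0.50 and 0.54, and that of Psme2 was 0.60, 0.55 and 0.63. With slide as a fixed block, where 1 gene of the whole array passed, the values were 0.53 (adjusted p = 0.107) and 0.59 (adjusted p = 0.106) in limma. The fit without any 1 of the 8 arrays gave 0.54 to 0.60 for Psme1 and 0.59 to 0.63 for Psme2, and both passed each time, with the highest limma adjusted p at 0.0138 and 0.00864.

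**Figure D1:**
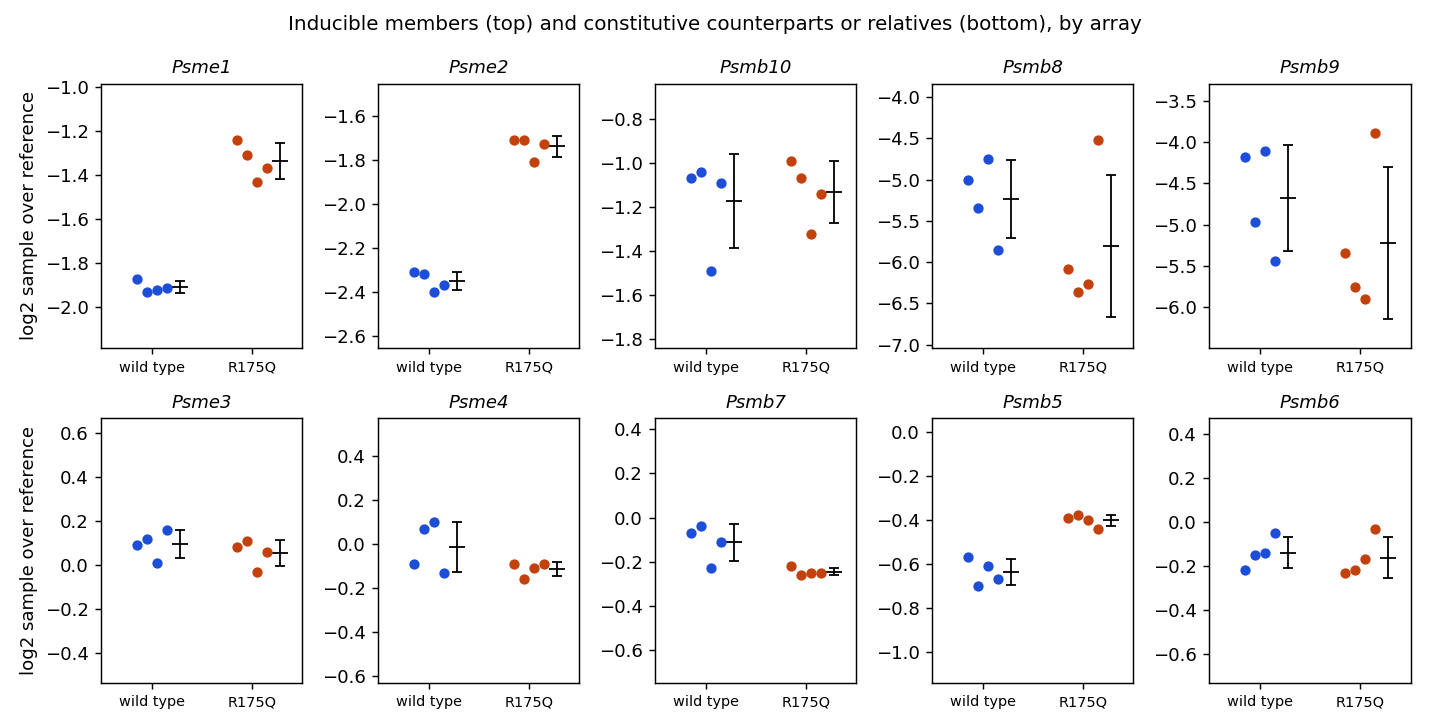
Log2 ratio of sample over reference on each array for the 5 interferon-inducible members (top) and for Psme3, Psme4, Psmb7, Psmb5 and Psmb6 (bottom); dots are arrays, the bar is the mean ± SD of 4, each panel has its own axis, and the axes of Psmb8 and Psmb9 span a wider range than the rest. Psme1, Psme2 and Psmb5 show no overlap between groups, while R175Q 4 stands far above the other R175Q arrays for Psmb8 and Psmb9.

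The other activators did not pass. Psme3, the nuclear PA28 gamma, gave −0.04 ± 0.05 (SE, n = 4 per group, limma adjusted p = 0.683) and Psme4, the activator PA200, −0.10 ± 0.07 (limma adjusted p = 0.464). A second, dimmer Psme4 probe gave 0.07 ± 0.09. Psmf1, the inhibitor PI31, gave −0.07 ± 0.05 (limma adjusted p = 0.467), with every R175Q value below every wild-type value. Set against Psme3 on the same array, Psme1 was higher in R175Q by 0.61 and Psme2 by 0.65. The per-array values of Psme1 less Psme3 ran from −1.43 to −1.32 in R175Q and from −2.07 to −1.93 in wild type, and those of Psme2 less Psme3 from −1.82 to −1.78 and from −2.53 to −2.41. Neither pair of groups overlapped. An exact two-sided permutation test over 70 assignments of the arrays gave p = 0.0286 for each, the smallest this design allows, and 0.0714 after adjustment over the 5 pairs compared, which does not pass. Without R175Q replicate 3, all 3 of the pairs with Psme1, Psme2 and Psmb10 had an adjusted p of 0.0476. The Psmb10 pair then also reached the smallest p possible, which eased the adjustment for all 3. The Psme1 and Psme2 pairs were separated with and without that array, so their evidence did not change.

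Psmb5, the core subunit with chymotrypsin-like activity, gave −0.39, −0.38, −0.40 and −0.44 in R175Q replicates 1 to 4 and −0.57, −0.70, −0.61 and −0.67 in wild-type replicates 1 to 4. The groups did not overlap, and the R175Q arrays were tightly spaced. Psmb5 rose by 0.23 ± 0.05, or 1.17-fold (SE, n = 4 per group, 95% interval 0.12 to 0.34, limma adjusted p = 0.0338). Its other probe gave 0.21 ± 0.05. Within slides 2, 3 and 4 the difference was 0.19, 0.25 and 0.23. The fits that left out 1 array gave 0.21 to 0.25 and passed 2 of 8 times, without wild type 3 and without R175Q 4. Leaving out any other array ended the call, with a limma adjusted p of up to 0.117, as did slide as a fixed block (0.23, adjusted p = 0.275). In mm9 its probe lies at chr14:55232957-55233016. All 3 genes that rose are on chromosome 14, as are Psmc6 and Psmd6, whose differences were 0.00 and −0.08.

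The other active constitutive subunits did not pass. Psmb6, of caspase-like activity, gave −0.02 ± 0.06 (SE, n = 4 per group, limma adjusted p = 0.856). Psmb7, of trypsin-like activity, gave −0.13 ± 0.05 (95% interval −0.26 to −0.01, limma adjusted p = 0.241).

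Psmb10, the inducible counterpart of Psmb7, was measured well above background and did not pass. It gave −0.99, −1.07, −1.32 and −1.14 in R175Q and −1.07, −1.04, −1.49 and −1.09 in wild type, where replicate 3 was the lowest array of each group. The difference was 0.04 ± 0.12 (SE, n = 4 per group, 95% interval −0.23 to 0.31, limma adjusted p = 0.863), so the interval ends below the lower bound for Psme1 and Psme2. Its difference from Psmb7 was higher in R175Q by 0.17, with overlapping groups (exact permutation p = 0.114, adjusted 0.19). Without R175Q replicate 3 this became 0.24 (exact permutation, adjusted p = 0.0476). That was the only R175Q array whose pair value overlapped wild type, at −1.07 against −1.25 to −0.98. Leaving it out therefore separated the groups, so this p is no stronger evidence than that of all arrays.

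Psmb8 and Psmb9, the inducible counterparts of Psmb5 and Psmb6, lie close together with Tap1 and Tap2 on chromosome 17, and the start of Tap1 lies between theirs. Both were dim. The median net Cy3 signal was 207.4 for Psmb8 and 124.2 for Psmb9, against medians of 12.9 to 22.4 for the negative control spots of an array and at least 951.4 for every other tested member except Psmg2, at 143.4. Psmb8 gave −6.08, −6.36, −6.26 and −4.52 in R175Q and −5.00, −5.34, −4.75 and −5.85 in wild type. Psmb9 gave −5.34, −5.76, −5.90 and −3.89 in R175Q and −4.18, −4.97, −4.11 and −5.44 in wild type. In both genes the groups overlapped, and R175Q 4 was the highest array of all.

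The differences were −0.57 ± 0.43 for Psmb8 (SE, n = 4 per group, 95% interval −1.57 to 0.43, limma adjusted p = 0.509) and −0.55 ± 0.49 for Psmb9 (95% interval −1.68 to 0.58, limma adjusted p = 0.559). Psmb8 less Psmb5 differed by −0.80 (exact permutation p = 0.171, adjusted 0.214) and Psmb9 less Psmb6 by −0.53 (exact permutation p = 0.314). Without R175Q 4 the Psmb8 difference was −0.999 and passed (limma adjusted p = 0.0448), and that of Psmb9 was −0.996 and did not (limma adjusted p = 0.0877). The pair differences were then −1.24 and −0.93 (exact permutation, adjusted p = 0.0952 and 0.143). Within slides 2, 3 and 4 the Psmb8 difference was −1.35, −1.22 and 1.33.

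These values moved with the background fitted to each array. The fitted background mean in Cy3 was lowest on R175Q 4 (−690), wild type 3 (−543) and wild type 1 (−436), and these were the 3 arrays with the highest ratios of both Psmb8 and Psmb9. The other 5 arrays had fitted means between −153 and −0.369. With the background taken from the negative control spots instead, Psmb8 ran from −6.70 to −6.25 in R175Q and from −6.55 to −6.10 in wild type, and the SD in R175Q went from 0.87 to 0.21. Psmb9 then ran from −6.14 to −6.01 and from −6.30 to −6.02. The differences became −0.06 ± 0.12 for Psmb8 (limma adjusted p = 0.783) and 0.07 ± 0.07 for Psmb9 (limma adjusted p = 0.615). Under the same setting Psme1 gave 0.62 (limma adjusted p = 4.62e-05), Psme2 0.65 (limma adjusted p = 2.24e-05), Psmb5 0.24 (limma adjusted p = 0.00981) and Psmb10 0.10 ± 0.11, and the members that passed were again the first 3, all higher. Over all genes 9.66% were higher and 9.75% lower there.

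**Figure D2:**
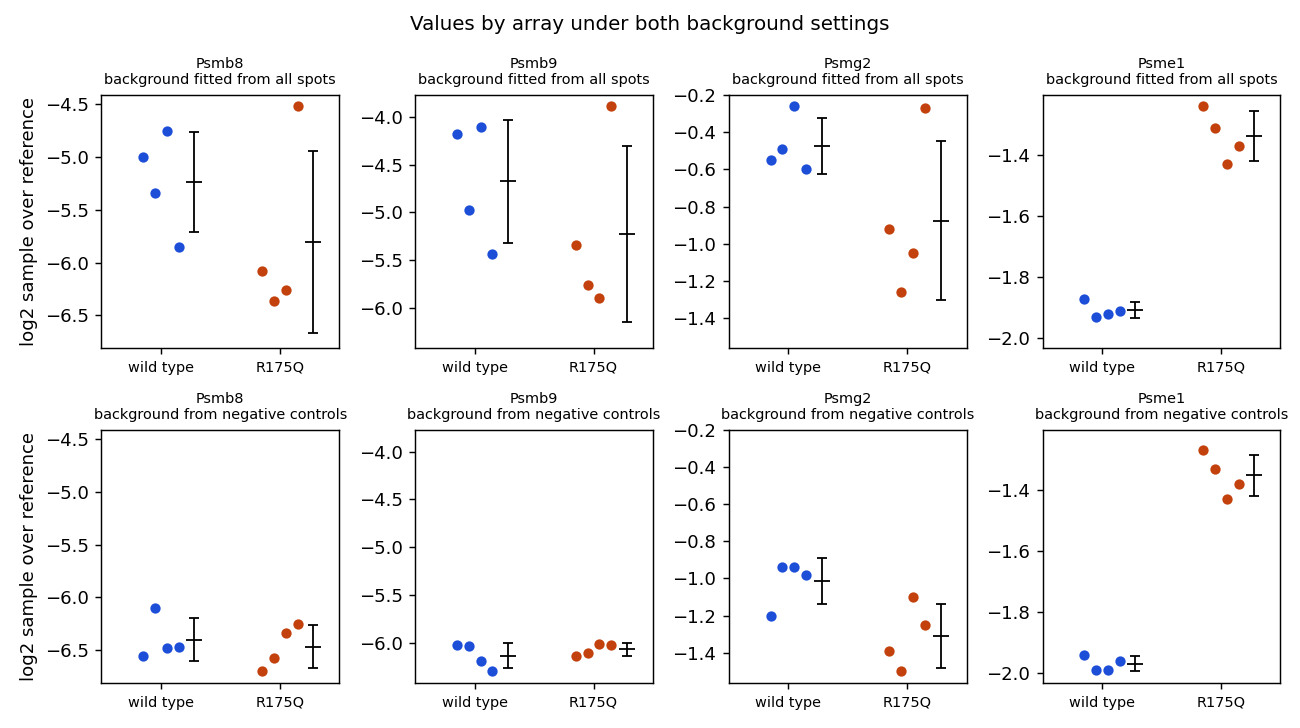
Log2 ratio of sample over reference on each array for Psmb8, Psmb9, Psmg2 and Psme1, with the background fitted from all spots (top) and from negative control spots (bottom); dots are arrays, bars are means ± SD of 4, and both rows of a gene share an axis. The high value of R175Q 4 for Psmb8, −4.52, becomes −6.25, while Psme1 barely moves.

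The 41 constitutive subunits, activators, inhibitor and chaperones varied little. The SD within a group had a median of 0.08 and ran from 0.01 to 0.43. Apart from Psmb5, the 40 differences lay between −0.40 (Psmg2) and 0.05 (Psmd11), and 0 passed in limma. Without Psmg2 they lay between −0.20 and 0.05, and the widest 95% bounds were −0.41 (Psma1) and 0.23 (Psmd8). Of these 39 intervals, 4 left out 0, those of Psmb7, Psmc4, Psmd2 and Psmd5, all on the lower side. The intervals are not adjusted for the number of genes, and the limma adjusted p of these 4 ran from 0.0986 to 0.241. The share of all genes with such an interval was not counted, so the 4 do not show a lowering of these members. Of the 41 estimates 37 were below 0, or 90.2%, beside 53.8% of all genes. With the negative control background 32 were, or 78.0%, beside 52.8%. The subunits share arrays and reference, so this share carries no test.

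**Figure D3:**
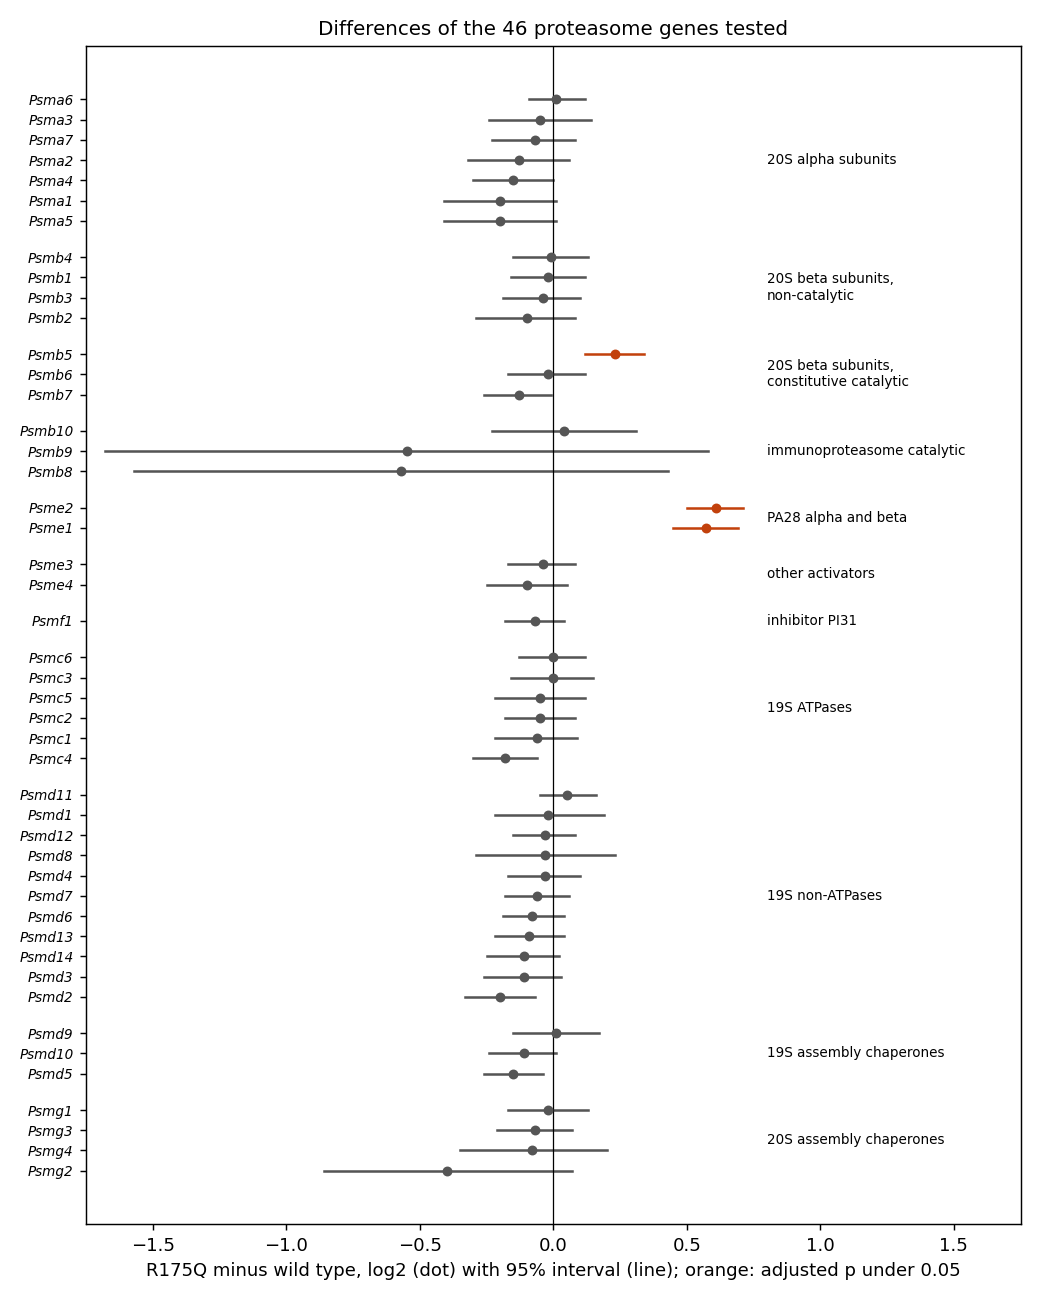
Difference between R175Q and wild type on the log2 scale with its 95% interval for the 46 proteasome genes tested, by subunit class; orange marks an adjusted p under 0.05. Psme1, Psme2 and Psmb5 lie right of 0, most others lie slightly left of it, and Psmb8 and Psmb9 have the widest intervals.

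By class, the alpha ring had 0 of 7 members past the threshold and a median of −0.14, from Psma5 at −0.20 ± 0.09 to Psma6 at 0.01 ± 0.05. The non-catalytic beta subunits had 0 of 4 and a median of −0.03, from Psmb2 at −0.10 ± 0.08 to Psmb4 at −0.01 ± 0.06. The 19S ATPases, which unfold substrates, had 0 of 6 and a median of −0.05. Psmc4 was the lowest of these, at −0.18 ± 0.05 (limma adjusted p = 0.103), and Psmc6 the highest, at 0.00 ± 0.05. The 19S non-ATPase subunits had 0 of 11 and a median of −0.06, from Psmd2, a scaffold of the base, at −0.20 ± 0.06 (limma adjusted p = 0.0986) to Psmd11 at 0.05 ± 0.05. The 19S assembly chaperones had 0 of 3, from Psmd5 at −0.15 ± 0.05 (limma adjusted p = 0.148) to Psmd9 at 0.01 ± 0.07. The groups did not overlap for 3 members higher (Psmb5, Psme1 and Psme2) and 4 lower (Psmc4, Psmd2, Psmd5 and Psmf1). This held for 5.72% of all genes on the higher side and 7.38% on the lower. With the negative control background the groups overlapped for Psmf1 and no longer did for Psmd11, higher in R175Q. There 4187 of all 17458 genes had groups without overlap.

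The 20S assembly chaperones had 0 of 4 and a median of −0.07, with Psmg1 highest at −0.02 ± 0.06. Psmg2, which pairs with Psmg1 to place alpha subunits, was the lowest at −0.40 ± 0.20 (SE, n = 4 per group, limma adjusted p = 0.355). Psmg2 gave −0.92, −1.26, −1.05 and −0.27 in R175Q and −0.55, −0.49, −0.26 and −0.60 in wild type. As in Psmb8, R175Q 1, 2 and 3 were below every wild-type array. R175Q 4 stood among the wild-type arrays here, and above all of them in Psmb8. That array had the lowest fitted background mean in Cy3, −690. With the background from negative controls, Psmg2 was −1.25 on R175Q 4 and −1.39, −1.50 and −1.10 on R175Q 1, 2 and 3. Without R175Q 4 the difference was −0.60 and passed (limma adjusted p = 0.0199). With the background from negative controls it was −0.30 ± 0.10 (limma adjusted p = 0.0551), in the Cy3 channel alone −0.002 (limma adjusted p = 0.994), with median centring −0.16 and with scaling between arrays −0.13 (limma adjusted p = 0.886).

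Of 20 proteasome-related genes outside the name rule (the maturation factor Pomp, the ubiquitin receptor Adrm1, shuttle proteins, ubiquitin genes and the regulators Nfe2l1 and Nfe2l2 among them), 0 passed, and the median was −0.03. Ubb, a ubiquitin precursor, was nearest, at 0.47 ± 0.11 with groups that did not overlap (limma adjusted p = 0.055). With the background from negative controls Ubb passed, at 0.48 (limma adjusted p = 0.00925). Nfe2l1 gave 0.06 ± 0.13 and Pomp −0.01 ± 0.11.

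In MHC class I antigen processing, the pathway that PA28 serves, 3 of 12 genes rose and 0 fell, where 2.68% of all genes were higher and 2.38% lower, with a median of 0.22. H2-D1, a class I heavy chain, rose by 0.64 ± 0.07 (SE, n = 4 per group, limma adjusted p = 0.00396). Its log2 ratios were −1.49, −1.55, −1.42 and −1.39 in R175Q and −2.10, −2.13, −1.94 and −2.25 in wild type, with no overlap. Tapbp, the tapasin that holds class I chains at the peptide transporter, rose by 0.37 ± 0.06 (limma adjusted p = 0.0152), and H2-K1, another heavy chain, by 0.36 ± 0.06 (limma adjusted p = 0.0185). H2-D1 and H2-K1 are close relatives, so their probes may share signal. H2-D1 passed without any 1 array, whereas H2-K1 and Tapbp each passed in 3 of the 8 such fits, and adjusted p otherwise reached 0.0731 and 0.062. The transporter genes Tap1 and Tap2, the neighbours of Psmb8 and Psmb9, gave −0.57 ± 0.49 and −0.39 ± 0.38, and neither passed. With the background from negative controls they gave 0.18 ± 0.06 (limma adjusted p = 0.0859) and 0.09 ± 0.06. Under that setting 6 of the 12 genes rose, those added being Nlrc5, the class I transactivator (0.69 ± 0.12), Canx (0.26 ± 0.07) and Tapbpl (0.24 ± 0.06), while the share of all genes called higher went to 9.66%.

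Among 12 interferon and STAT factors tested, 2 rose and 1 fell, where 2.68% of all genes were higher and 2.38% lower. Their median was −0.06, beside −0.02 over all genes. Irf9, the DNA-binding part of the ISGF3 complex, rose by 0.59 ± 0.09 and Irf1, which binds promoters of immunoproteasome genes, by 0.36 ± 0.06 (SE, n = 4 per group, limma adjusted p = 0.0135 for each). Jak2, a kinase of the interferon-gamma receptor, fell by 0.49 on the log2 scale (SE 0.08, limma adjusted p = 0.0135). Without wild type 1 none of the 3 passed, with adjusted p values of 0.0579, 0.0606 and 0.0558, and Irf1 also missed without R175Q 1 (0.0505) and without R175Q 2 (0.0513). Of the 6 genes that passed in these lists 0 did so once slide was a fixed block, H2-D1 having the lowest limma adjusted p, 0.141. With scan day as a block 0 did, with limma adjusted p from 0.0538 (H2-D1) to 0.124 (Tapbp). Both fits used the background fitted from all spots. With the negative control background and slide as a fixed block all 6 passed, as did 810 of the 884 genes called at first. Within slides 2, 3 and 4 the difference of H2-D1 was 0.55, 0.61 and 0.86. The receptor chains Ifngr1 and Ifngr2 gave −0.24 ± 0.07 and −0.10 ± 0.07 and did not pass.

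**Figure D4:**
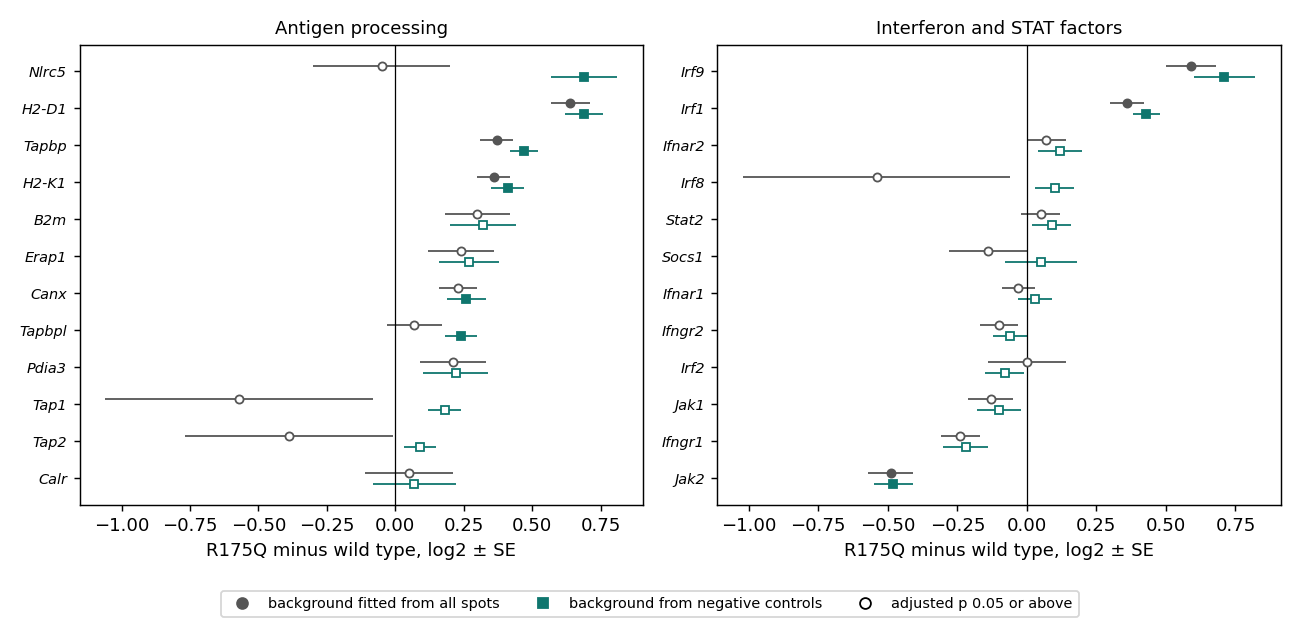
Difference between R175Q and wild type on the log2 scale, with its SE, for antigen processing genes (left) and interferon and STAT factors (right); grey circles use the background fitted from all spots, green squares that from negative controls, and filled marks have an adjusted p under 0.05. H2-D1, Tapbp, H2-K1, Irf9, Irf1 and Jak2 are filled under both; Tap1, Tap2, Irf8 and Nlrc5 shift most between them.

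Leukocytes express these pathways strongly, so their markers were measured beside the rises. The mean log2 ratio of the 10 leukocyte markers tested ran from −2.74 to −1.65 in R175Q and from −2.45 to −1.66 in wild type, and with the negative control background from −2.95 to −2.80 and from −2.95 to −2.77. The groups overlapped in both. Under the negative control background the 5 fibroblast markers ran from −5.04 to −4.79 in R175Q and from −5.84 to −5.65 in wild type. There 4 of 5 passed as higher, where 9.66% of all genes were higher and 9.75% lower. In the first setting they ran from −4.93 to −3.51 in R175Q and from −5.04 to −4.11 in wild type. Lum was not well above background on any array. The 3 endothelial markers tested ran from −1.49 to −1.32 in R175Q and from −1.72 to −1.54 in wild type with the negative control background, without overlap, and Vwf among them rose by 0.85 ± 0.10 (limma adjusted p = 0.000266). In the first setting they ran from −1.26 to −0.42 and from −1.11 to −0.51, Vwf gave 0.23 ± 0.15 (limma adjusted p = 0.462), and Cdh5 and Tek were not well above background on any array. The 6 epithelial markers ran from 0.58 to 0.83 in R175Q and from 1.11 to 1.26 in wild type in the first setting. With the negative control background they ran from 0.54 to 0.65 and from 1.01 to 1.12. The groups overlapped in neither. All 6 differences were below 0 in the first setting, as were 53.8% of those of all genes. Krt7 differed most, at −1.55, and Cdh1 least, at −0.06 ± 0.25. Krt8 also passed as lower with the negative control background (limma adjusted p = 0.0303). The part of such cells or states in the rise of Psme1, Psme2 and the antigen processing genes was not tested. In RNA from whole samples, more cells of a type and more RNA per cell cannot be told apart.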

How the data were processed

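RNA from 8 samples, 4 per group, was measured on two-colour arrays with the sample in Cy3 and a common reference in Cy5, per the labels, and no dyes were swapped. The intensities used here and a log10 ratio, used only as an alternative, were written by Agilent Feature Extraction (version 9.5.3.1), per the file headers. The labels contradict themselves on the species of the reference (mouse or human) and on whether the material was microdissected or cultured. The table of log2 values the authors deposited runs as Cy3 over Cy5, judged from its values (r with the scanner's ratio across probes 0.902 to 0.941, slope 0.657 to 0.751, column medians 0.0524 to 0.0617). Its scaling and centring are unknown, and it served as an alternative.

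Mean intensities and median local backgrounds were corrected by normexp (offset 50) and by loess within arrays. Spots of a probe were averaged. The 22971 probes that stood well above background in the sample channel on 4 or more arrays were kept, less those with an outlier flag, which left 22849. The brightest probe of each gene gave 17458 genes. The groups were compared two-sided by lmFit and eBayes in limma (3.58.1; R 4.3.3, statmod 1.5.0), and p was adjusted by Benjamini-Hochberg across these genes, with 0.05 as the threshold. The 5 pair differences used exact permutation tests. Values after ± are standard errors unless named SD. The number of arrays limits the precision.

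Members and lists were chosen with earlier results of these data known. Named genes were the 5 inducible members, their counterparts, every member past the threshold or not tested, the highest and lowest of each class, and list genes past the threshold. Others were named after their values were seen. Alternatives covered background, normalization, channel, filter, probe rule, test, blocks and each array left out. Promoters came from a RefSeq table, matched by symbol for 40 of the 48 members other than Psmc3ip. Probe positions are the files' own (mm9). The procedure was tested on simulated data of this comparison with 17458 genes. It found 56% of changes of 0.5 log2, 88% of those of 1, 90% of those of 1.5 and 96% of those of 2. Of its calls 5.17% were false. The simulated errors were normal and independent between genes, with no slide, scan day or background effects. These shares therefore need not hold for the arrays themselves.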

Additional observations from a re-analysis of the deposited data

Results flagged for a closer look

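Within the groups of 4 arrays, 46 groups of values were examined for a single array far from the other 3, and 4 met the criterion (Dixon's ratio past its 95% critical value), where chance gives about 1 in 20. Psmb8 on R175Q 4 was −4.52, with the other R175Q arrays between −6.36 and −6.08; with the negative control background it was −6.25, with the others between −6.70 and −6.34. The remaining 3 all concern wild type 3. Psmb10 there was −1.49, with the other wild-type arrays between −1.09 and −1.04. Psma6 there was 0.03, with the others between 0.13 and 0.14. Psmg1 there was −0.66, with the others between −0.50 and −0.47.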

How the results depend on the processing

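Psme1 and Psme2 were higher in R175Q under all 17 alternatives that can move a ratio and without each array. Quantile normalization of brightness leaves ratios as they are and is not counted. They passed under 14 of the 17 and in all 8 fits that left out an array. The exceptions were slide as a fixed block, median centring of each array in place of loess (0.92 and 0.95, adjusted p = 0.834), which shifted the median difference over all genes to 0.30, and scaling between arrays (0.88 and 1.00). Psmb5 kept its direction everywhere and passed under 10 of 17, with 0.15 and an adjusted p of 0.129 in the Cy3 channel alone. No called gene named here changed direction. The 884 genes called over the array became 3389 with the negative control background, 3402 without background correction, 2936 with the scanner's ratio, 2568 in Cy3 alone, 3207 in the deposited table, 4897 with array weights and 2537 with the negative control background and slide as a block. They became 0 with median centring, 115 with scaling, 96 with scan day as a block, 1 with slide as a block, and 270 to 1703 without 1 array. Of the 884, 882 were also called with the negative control background. The 3 members called became 0 with median centring, scaling or slide as a block, 12 with array weights (3 higher and 9 lower, Psmb8 and Psmb9 among the latter at −1.01 and −1.07), and 2 to 5 without 1 array. The cause of these changes was not tested. The weakest signals over background among the tested members were those of Psmb8, Psmb9 and Psmg2.

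Replicate numbers did not pair the samples: same-numbered arrays deviated together with r = 0.34, 0.43, −0.44 and −0.85, and 1 of 4 numbers was its own best match. With the replicate number as a block 148 genes were called, among them Psme1 and Psme2 (adjusted p = 0.0363 and 0.0315) but not Psmb5 (0.147). Of the 6 antigen processing and interferon genes called, Jak2 passed (0.0429), and H2-D1 (0.0516), Irf9 (0.0521), H2-K1 (0.0869), Irf1 (0.117) and Tapbp (0.122) did not. In eBayes with a trend and robust fit H2-K1 (0.14) and Tapbp (0.0507) missed. With median centring 0 of the 6 passed, and with scaling Jak2 alone did.

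In the deposited table Psmb8 less Psmb5 (−0.274), Psme1 less Psme3 (0.718) and Psme2 less Psme3 (0.799) passed. Each had an adjusted exact permutation p of 0.0476. Before adjustment each was at 0.0286, the smallest p this design allows, where the Psme1 and Psme2 pairs also were in the first setting. Without 1 array the pairs ranged as follows: Psmb8 less Psmb5 from −1.243 to −0.61, Psmb9 less Psmb6 from −0.93 to −0.305, Psmb10 less Psmb7 from 0.11 to 0.236, Psme1 less Psme3 from 0.587 to 0.636 and Psme2 less Psme3 from 0.622 to 0.662. The differences that changed sign had not passed, and most lay near 0. Psmb9 less Psmb6 turned to 0.079 with the negative control background, 0.076 without correction, 0.093 with the scanner's ratio, 0.421 with scaling, 0.146 in the deposited table and 0.093 with the negative control background and slide. Psmb8 less Psmb5 turned to 0.256 with scaling. Psmb9 itself turned to 0.065, 0.062, 0.079, 0.479, 0.158 and 0.098 in those 6 settings. With the negative control background Psmb4 became 0.005, Psmc6 0.024 and Psmg1 0.017, and without correction 0.006, 0.027 and 0.019. With the scanner's ratio Psmc6 became 0.003. With the negative control background and slide Psmb4 became 0.014, Psmb6 0.004, Psmb8 0.040 and Psmc6 0.055. In the deposited table Psmb4 became 0.010, Psmb6 0.012 and Psmc6 0.025. In Cy3 alone Psma6 became −0.034, Psmb4 0.022, Psmb6 0.058, Psmb8 0.020, Psmb9 0.029, Psmd9 −0.043, Psme3 0.053 and Psmg1 0.056. With scaling Psmb4 became 0.106, Psmb6 0.058, Psmb8 0.565, Psmf1 0.001 and Psmg1 0.061. With scan day as a block Psmb4 became 0.016, Psmb6 0.008, Psmb10 −0.017, Psmc6 0.025 and Psmd9 −0.038, and with slide as a block Psmb4 0.001, Psmb10 −0.037, Psmc6 0.014 and Psmd9 −0.043. With median centring Psma5 became 0.145, Psmb2 0.283, Psmb4 0.325, Psmb6 0.301, Psmb7 0.233, Psmc4 0.174, Psmc6 0.387, Psmd2 0.150, Psmd5 0.242, Psme3 0.349, Psme4 0.317, Psmf1 0.331 and Psmg1 0.364, beside that shift of all genes by 0.30. Without 1 array Psma6 ranged from −0.011 to 0.025, Psmb10 from −0.062 to 0.105, Psmb4 from −0.041 to 0.019, Psmb6 from −0.067 to 0.005, Psmc6 from −0.041 to 0.023, Psmd9 from −0.028 to 0.044 and Psmg1 from −0.064 to 0.004.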
